A study of Mus musculus with 2 samples.

Results

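The genes described here encode the subunits of the exocyst, a complex that holds secretory vesicles at the plasma membrane before they fuse with it. They are Exoc1, Exoc2, Exoc3, Exoc4, Exoc5, Exoc6, Exoc6b, Exoc7 and Exoc8, and they were chosen by gene symbol from the platform annotation. Each of the 9 had 1 probe set on the array and none appeared in a probe set with several symbols, out of 35556 probe sets and 19938 genes with a single symbol. RNA came from skeletal muscle of the hindlimb, taken from C57BL/6J males on standard chow. One array held RNA of wild-type mice and the other RNA of mice with a Syn4 transgene, which overexpresses syntaxin 4. The sources used here do not give the promoter or species of the transgene, the age of the mice, how many mice stand behind each array or whether their RNA was pooled. With 1 array per genotype no difference was tested, and each value below is a single measurement without an error, a replicate check or a p-value.

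The exocyst works ahead of the SNARE proteins. A vesicle carrying an active Rab or Ral GTPase is caught by the complex, which itself binds phosphoinositides of the plasma membrane, and the SNAREs, syntaxin 4 among them, then drive fusion. In fat and muscle cells the complex is known for helping vesicles with the insulin-responsive glucose transporter GLUT4 reach the cell surface. Exoc1 to Exoc4 form one subassembly and Exoc5 to Exoc8 the other, with Exoc6 and Exoc6b as alternative forms of the same subunit. The series concerns the insulin sensitivity and lifespan of mice with more syntaxin 4. The comparison here asks how the transcripts of the machinery that acts just before syntaxin 4 differed in the same muscle.

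None of the 9 exocyst transcripts differed between the arrays by as much as 1.5-fold. Exoc7, Exoc6b, Exoc4 and Exoc2 were 1.17-fold to 1.21-fold higher in the transgenic array, Exoc6 was 1.10-fold higher, Exoc1, Exoc3 and Exoc5 were within 1.04-fold of wild type, and Exoc8 was lower, by 1.09-fold. The signs of Exoc1 and Exoc5, at 0.02 each, turned under other scalings of the arrays. Of all 19938 genes, 2.95% differed by at least 1.5-fold in either direction, so a count of 0 among 9 is near that background. At a log2 difference of 0.32, which 14.6% of genes passed, the count was also 0. At 2-fold, which 0.697% passed, it is 0 by construction. Stx4a, the gene that encodes syntaxin 4, had a log2 intensity of 8.84 in wild type and of 12.20 in the transgenic array, 10.3-fold higher, so the arrays carried the signal their labels name.

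The stretches of genome just before the starts of 3 of these genes are printed as examples from the upper and lower ends of the members' differences. Exoc7 had the largest positive difference, Exoc4 the largest positive difference among the subunits of its subassembly, and Exoc8 the lowest. The sequences are from RefSeq on GRCm38.p6, read 5′ to 3′ on the strand of the gene, and end at the base before its outermost annotated start. Capitals mark a GC box or a CCAAT box, on either strand; their letters are given after the sequences. The Exoc7 stretch is chr11:116306751-116306863 on the minus strand, the Exoc4 stretch chr6:33248940-33249089 on the plus strand, and the Exoc8 stretch chr8:124897706-124897770 on the minus strand.
Exoc7: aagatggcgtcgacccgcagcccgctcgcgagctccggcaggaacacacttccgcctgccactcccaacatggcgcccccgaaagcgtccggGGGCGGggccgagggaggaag
Exoc4: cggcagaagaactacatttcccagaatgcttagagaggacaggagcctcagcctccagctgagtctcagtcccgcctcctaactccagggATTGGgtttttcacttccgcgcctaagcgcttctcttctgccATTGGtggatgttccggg
Exoc8: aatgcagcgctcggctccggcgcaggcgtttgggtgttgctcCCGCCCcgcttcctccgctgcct
The Exoc7 and Exoc8 stretches each held 1 GC box and the Exoc4 stretch held 2 CCAAT boxes. These counts are over unlike lengths: 113 bases for Exoc7, 150 for Exoc4 and 65 for Exoc8. The Exoc7 and Exoc8 stretches were cut before the start of a neighbouring gene on the opposite strand.

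All 9 members had an entry in the RefSeq promoter table, and 5 motifs were searched on both strands in the 250 bases before the most upstream listed start. The GC box GGGCGG, bound by SP factors, was present for 5 of 9 members (Exoc1, Exoc3, Exoc6, Exoc7 and Exoc8) and in 33% of the 27025 promoters. The CCAAT box, bound by NF-Y and searched as those 5 letters, was present for Exoc1 and Exoc4, 2 of 9, and in 34.5% of promoters. The ETS core CCGGAAG (7.07% of promoters), the TATA box TATAAA (13%) and the E-box CACGTG (6.04%) were found for 0 of 9 members. The GC content of these windows ran from 48.8% for Exoc6b to 72.4% for Exoc6, against a median of 52% over all promoters. The members with a GC box had log2 differences of -0.12 (Exoc8), 0.02 (Exoc1), 0.06 (Exoc3), 0.14 (Exoc6) and 0.28 (Exoc7), and those without one of 0.02 (Exoc5), 0.23 (Exoc2), 0.26 (Exoc4) and 0.27 (Exoc6b). These values are a description, and a link between the letters and the differences was not tested.

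The subassembly of Exoc1 to Exoc4 had differences of 0.02 to 0.26 on the log2 scale, with a median of 0.145. Exoc1 (Sec3, Entrez 69940, chromosome 5), which binds phosphoinositides of the plasma membrane, was at a log2 intensity of 8.14 in wild type and 8.16 in the transgenic array. The deposited values are rounded to 2 decimals, so a difference carries a rounding limit of 0.01, and the 0.02 of Exoc1 is close to it. Exoc2 (Sec5, Entrez 66482, chromosome 13), which Ral GTPases bind, was at 8.74 and 8.97, a log2 difference of 0.23. In the RefSeq annotation the span of Exoc2 overlaps that of the coding gene Hus1b.

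Exoc3 (Sec6, Entrez 211446, chromosome 13), a subunit that contacts SNARE proteins in yeast, was at 9.12 in wild type and 9.18 in the transgenic array. Exoc4 (Sec8, Entrez 20336, chromosome 6), a core subunit of the same subassembly, was at 10.46 and 10.72. The difference of 0.26 for Exoc4 corresponds to 1.20-fold, and 23.9% of all genes were at least this far from 0. Within this subassembly, Exoc2 and Exoc4 had the larger differences, and Exoc1 and Exoc3 were near equal.

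The other subassembly spanned a wider range, from -0.12 to 0.28, with a median of 0.14. Exoc5 (Sec10, Entrez 105504, chromosome 14), which bridges to Exoc6 and is needed for building primary cilia, was at 8.67 in wild type and 8.69 in the transgenic array. Exoc6 (Sec15, Entrez 107371, chromosome 19), which binds Rab11 on the vesicle, was at 10.62 and 10.76. Its paralogue Exoc6b (Sec15b, Entrez 75914, chromosome 6), which takes the same place in the complex, was at 9.09 and 9.36. Both forms of the Sec15 subunit were higher in the transgenic array, Exoc6 by 0.14 and Exoc6b by 0.27 on the log2 scale. Levels of different probe sets cannot be set against each other on an array, so these values do not say which form was the more abundant, nor in what ratio the subunits were made.

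Exoc7 (Exo70, Entrez 53413, chromosome 11), which binds phosphoinositides of the plasma membrane, was at 9.63 in wild type and 9.91 in the transgenic array. Its difference of 0.28 was the largest of the members, and 20.7% of all genes were at least as far from 0. Exoc8 (Exo84, Entrez 102058, chromosome 8), which like Exoc2 is bound by Ral GTPases, was at 8.34 and 8.22. The pair of Ral-binding subunits therefore lay on opposite sides of 0, with Exoc2 at 0.23 and Exoc8 at -0.12. Of all genes, 57.5% were at least as far from 0 as Exoc8.

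**Figure D1:**
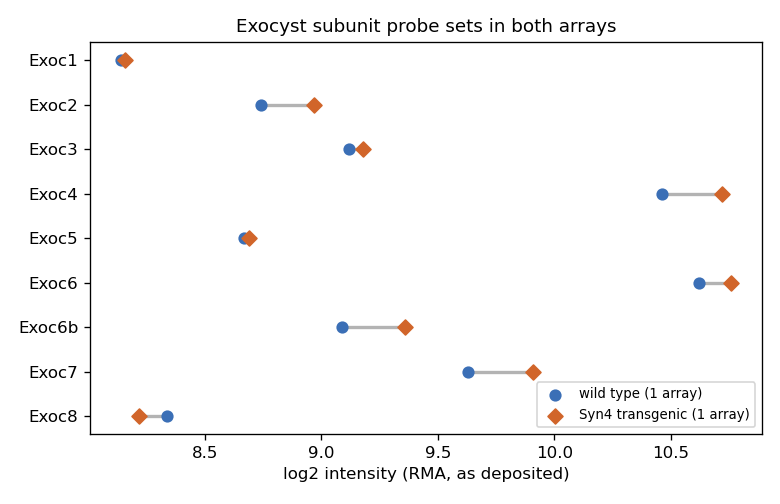
Log2 intensity after RMA (x axis) of the 9 exocyst probe sets (y axis) in the wild-type array (circles) and the Syn4 transgenic array (diamonds), with 1 array per genotype and no error bars. The transgenic value lies to the right for every gene except Exoc8 (by 0.02 for Exoc1 and Exoc5, whose sign turned under other scalings), and the longest line, for Exoc7, spans 0.28; positions of different genes along the axis are not comparable as abundance.

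These differences were of the size seen in other genes of like level. Among the 501 genes formed by each member and its 500 nearest genes in mean level, Exoc6b ranked 105th and Exoc7 106th in size of difference, Exoc4 141st and Exoc2 153rd. Exoc6 ranked 259th and Exoc8 286th, and Exoc3, Exoc5 and Exoc1 lay at ranks 373, 462 and 463. The local spread, a scaled median absolute deviation of those 500 differences, was 0.193 to 0.222 on the log2 scale for the 9 members. That spread comes from genes of the same 2 arrays and is no measure of the spread between mice. Measured from 0, Exoc2, Exoc4, Exoc6b and Exoc7 differed by more than 1 local spread and the other 5 by less. Exoc2 was close to that line, at 0.23 against a spread of 0.208. The spread is taken about the median of the like-level genes, 0.04 for Exoc2, and not about 0. The Exoc2 difference was 0.195 with the loess trend removed and 0.185 with repeated quantile normalization, both below 0.208.

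Of the 9 members, 8 were above 0 and 1 below, with a median of 0.14. Over all genes 46.9% were above 0 with a median of 0.00, and over the 4747 genes with a mean level inside the range of the members, from 8.15 to 10.69, 54.9% were above 0 with a median of 0.03. The count of 8 includes Exoc1 and Exoc5, which lay below 0 when a loess trend on level was removed (-0.02 and -0.02) or quantile normalization was repeated (-0.03 and -0.04), so that 6 of 9 were above 0 under either scaling. The members' median was then 0.13 and 0.12. All 9 members lay above the 95th percentile of 1027 olfactory receptor genes, 5.42, in both arrays.

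**Figure D2:**
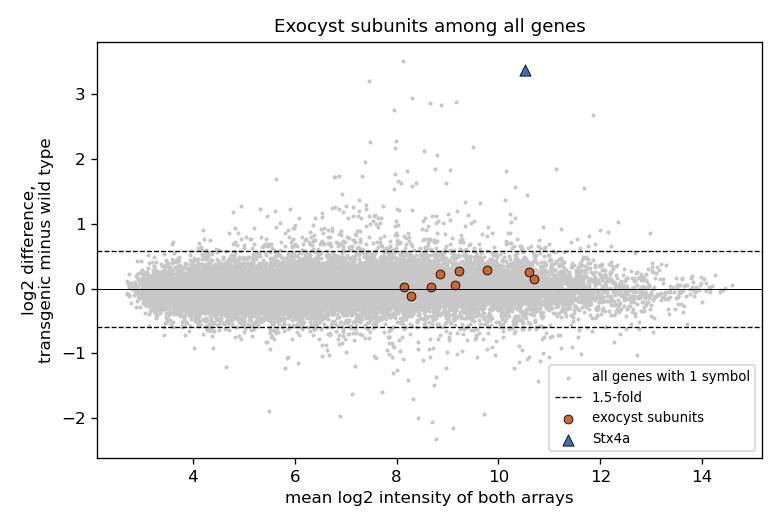
Log2 difference, transgenic minus wild type (y axis), against the mean log2 intensity of both arrays (x axis) for 19938 genes (grey), the 9 exocyst subunits (circles) and Stx4a (triangle), with dashed lines at 1.5-fold. The exocyst subunits lie inside the band of most genes, from -0.12 to 0.28, while Stx4a lies at 3.36.

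A pair of subunit genes start next to another coding gene on the opposite strand, and the neighbours' values give a measurement beside theirs. Exoc8 and Sprtn, which encodes a protease that clears proteins crosslinked to DNA, are transcribed away from each other from listed starts 189 bases apart, and the Exoc8 stretch printed above lies between their outermost starts. Sprtn was at 7.35 in wild type and 7.65 in the transgenic array, a log2 difference of 0.30, whereas Exoc8 was at -0.12. The genes on either side of this stretch thus lay on opposite sides of 0, and whether they differed in direction was not tested. Exoc5 and Ap5m1, which encodes a subunit of the AP-5 sorting adaptor, overlap at their starts by 118 bases, and Ap5m1 was at 7.97 and 8.13, a difference of 0.16 beside the 0.02 of Exoc5. Ap5m1 and Sprtn were named for their position, not their values.

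The paralogues of Exoc3 and the proteins that switch the exocyst on did not differ by 1.5-fold either, a size that 2.95% of all genes reached. Of 4 paralogues, 1 was above 0 and 3 below, with a median of -0.12. They ran from Exoc3l2 (6.59 in wild type and 6.39 in the transgenic array) to Exoc3l4 (6.41 and 6.67), both dim. Of 13 small GTPases that bind exocyst subunits, 5 were above 0 and 8 below, with a median of -0.03. Rab13, a GTPase of GLUT4 vesicles in muscle cells, was highest (6.82 and 7.19) and Rab35, of endosomal recycling, lowest (10.06 and 9.87). Most of these GTPases thus lay below 0 and most members above it, a description and not a test. The GTPase median is close to 0, and the signs of Exoc1 and Exoc5 turned under other scalings.

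Among 9 measured genes that activate, inactivate or act beside Ral, 6 were above 0, 2 below and 1 at 0, with a median of 0.14. Ralgapa2, a catalytic subunit of the complex that switches Ral off, was highest (7.81 and 8.12), and Rgl2, which switches Ral on, lowest (8.85 and 8.66). The other genes that switch Ral on lay above 0, at 0 or below it, and a link to Ral activity was not tested. Of 21 cofactors and phosphoinositide kinases, 13 were above 0 and 7 below, with a median of 0.12. Among the 18 of them with a log2 intensity of at least 6.79 in either array, the median was 0.04. Tbk1, a kinase that Exoc2 and RalB recruit, was highest (7.51 and 7.93), and Pard6a, a polarity protein, lowest (6.95 and 6.74). None of the members of either list reached 1.5-fold, against 2.95% of all genes.

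Among the fusion proteins that act after tethering, Stx4a was the one gene of 19 measured that reached 1.5-fold. The list's median was 0.05, with 12 genes above 0 and 7 below. Vamp8, an endosomal SNARE, was lowest (9.48 and 9.06). Of the 9 measured genes of GLUT4 vesicle cargo and GTPase-activating proteins, 6 were above 0 and 3 below, with a median of 0.26. Slc2a4, which encodes GLUT4 itself, was among those below 0 (12.27 and 11.92). The summed intensity of the list was 11919 in wild type and 11390 in the transgenic array. Such a sum weighs the brightest probe set most, here that of Slc2a4, and does not give the direction of most genes. Tbc1d1, which restrains GLUT4 vesicles through their Rab proteins, was highest (9.73 and 10.22), and Tfrc, the transferrin receptor, lowest (10.71 and 10.20). Tbc1d4, another GTPase-activating protein of the list, was below 0 (9.19 and 8.73). This list held differences on both sides of 0 that were larger than any exocyst member's. None of them reached 1.5-fold, against 2.95% of all genes.

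The other tethering complexes were read beside the exocyst because they are built from related or analogous subunits and act at other membranes. None of the 39 genes measured for them differed by 1.5-fold, against 2.95% of all genes, so this count is near that background. Of the 39, 26 were above 0, 10 below and 3 at 0. Over all genes 46.9% were above 0, and over those in the level range of the exocyst members 54.9%. All 7 measured subunits of COG, the tether of the Golgi, were above 0, with a median of 0.23, from Cog7 (8.54 and 8.65) to Cog3 (7.53 and 7.92). The 3 subunits of NRZ, a tether of the endoplasmic reticulum, had a median of 0.21, from Nbas (8.98 and 9.10) to Rint1 (7.51 and 7.72) and Zw10 (7.01 and 7.22). GARP and EARP, tethers for vesicles from endosomes, had a median of 0.115 over 6 genes, from Eipr1 (7.97 and 7.64) to Vps53 (8.27 and 8.71). Eipr1, alone below 0 in this list, encodes a protein that interacts with the complexes and is not a tether subunit.

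HOPS and CORVET, tethers of lysosomes and endosomes, had a median of 0.07 over 9 genes, with Vps33a lowest (9.68 and 9.58) and Vps8 highest (7.30 and 7.66). TRAPP, which activates Rab GTPases at the Golgi, had a median of -0.075 over 14 genes, of which 8 were below 0. Trappc2 (11.03 and 10.78) and Trappc6a (7.44 and 7.19) were lowest and Trappc11 (8.63 and 8.94) highest. The exocyst median of 0.14 lay between those of COG and TRAPP. Differences between complexes were not tested.

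**Figure D3:**
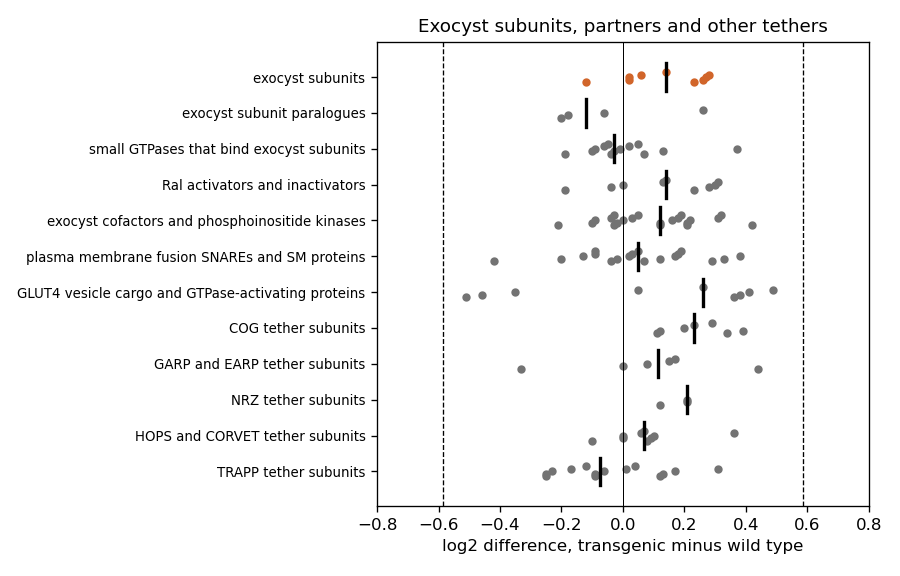
Log2 difference, transgenic minus wild type (x axis), for each measured gene (points) of the exocyst, its partners and other tethers (y axis), with the list median as a bar and dashed lines at 1.5-fold; Stx4a, at 3.36, is outside the axis and counted in its list's median. Every plotted gene lies inside the dashed lines, and the exocyst subunits range from -0.12 to 0.28.

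Markers of cell types in the tissue are given beside these values because many cell types make the exocyst. The 12 muscle fibre markers had a median log2 intensity of 13.96 in wild type and 14.09 in the transgenic array, and none differed by 1.5-fold; their differences ran from -0.03 for Ckm, Atp2a1 and Tnni2 to 0.36 for Myh1. Of 8 measured white adipocyte markers 8 were above 0, and 7 passed 1.5-fold. Their summed intensity was 1481 in wild type and 4177 in the transgenic array. All 9 slow fibre markers were lower by at least 1.5-fold, or 8 of 9 when all probe sets of a gene were averaged, with summed intensities of 55359 and 32122. Of 9 fibroblast markers 9 were above 0 (1 by 1.5-fold), of 9 Schwann cell and nerve markers 7 (1 by 1.5-fold), of 9 macrophage markers 7 and of 8 endothelial markers 4. Of all genes, 2.95% reached 1.5-fold in either direction. Over all genes 46.9% were above 0, and in the level range of the exocyst members 54.9%. The part of these differences in cell makeup in the exocyst values was not tested, and in whole tissue a change in cell number and a change in RNA per cell cannot be told apart.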

How the data were processed

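Total RNA of each genotype was labelled with the Ambion WT Expression and Affymetrix WT Terminal Labeling kits, per the labels' protocols. The deposited values are log2 intensities per probe set, made by the authors with RMA in Partek, per the submitters' processing notes; the sources used here name no version or step. The array medians were both 6.06. Having 2 arrays limits the precision.

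Symbols are those of the platform annotation, of some age; for all 9 members the Entrez identifier led to the same symbol in RefSeq (GRCm38.p6). Of the probe sets, 21789 carried 1 symbol, 1621 several and 12146 none. No source used here states the genome build behind the array. Where several probe sets shared a symbol (999 genes), the one with the highest mean was used.

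Differences are transgenic minus wild type on deposited values (pandas 2.3.3, numpy 2.4.6), and counting was tested on simulated data. The rule of size was 1.5-fold (0.58 on the log2 scale), with no level filter. Named genes are all members, Stx4a, Slc2a4 as the gene of GLUT4, and for each list the genes past 1.5-fold and its highest and lowest. Tbc1d4 is named beside Tbc1d1. Markers past 1.5-fold are counted only. The members and lists were chosen with earlier results of these data known. Alternatives were median centring, repeated quantile normalization, loess (span 0.3, 3 iterations, statsmodels 0.14.6), averaged probe sets, a level filter, and thresholds of 2-fold and of 0.32 on the log2 scale.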

Additional observations from a re-analysis of the deposited data

How the results depend on the processing

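The count of exocyst members past the rule of size was 0 with repeated quantile normalization, with the loess trend removed and at a threshold of 0.32 on the log2 scale. The members' median of 0.14 moved to 0.12 with repeated quantile normalization. Centring the arrays, averaging probe sets and the 2-fold threshold could not move a member's value or call, since the array medians were equal, each member had 1 probe set and none reached 1.5-fold. The largest move of a member was 0.06, with repeated quantile normalization. At a threshold of 0.32, 13 of the 114 measured genes of the pathway and tether lists were higher and 5 lower, against 1 and 0 at 1.5-fold. Over all genes 7.66% were higher and 6.94% lower at 0.32, and 1.76% and 1.19% at 1.5-fold. In the level range of the members the shares at 0.32 were 10.2% and 6.66%. Loess and repeated quantile normalization turned the sign of 1 of 18 list medians, that of the endothelial markers, of which 3 of 8 were then above 0. The level filter kept genes with a log2 intensity of at least 6.79 in either array, and it moved some list medians. That of the cofactors and phosphoinositide kinases went from 0.12 to 0.04, and that of the Exoc3 paralogues from -0.12 to -0.18. That of the Ral list went from 0.14 to 0.18, and that of the Schwann cell and nerve markers from 0.18 to 0.40. The comparison with genes in the level range of the members was chosen after seeing the data. No paired analysis was possible because each genotype has 1 array. With 2 arrays, differences of the size seen here cannot be set against the spread between mice.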
